A study of Homo sapiens with 2 samples.

Results

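Of the 11046 LDB1 peaks deposited for NB4 cells, 292 (2.64%, 95% interval 2.36 to 2.96%) had their midpoint inside an annotated exon and more than 3000 bp from every annotated transcription start site (TSS). These exonic peaks were chosen by position alone, with GENCODE release 44 transcripts on hg38, and they made up 4.10% (3.67 to 4.59%) of the 7115 peaks that lay beyond 3000 bp of a TSS. The midpoint fell in coding sequence for 67 of them, in an untranslated part of a protein-coding transcript for 134, and in an exon that only noncoding transcripts use for 91. NB4 is a human acute promyelocytic leukemia cell line, and the peaks came from CUT&Tag, in which an antibody guides a transposase that cuts and tags the DNA around the bound protein. The series held 2 libraries, both from NB4 cells. Per the labels, the LDB1 antibody was used on cells with LDB1 overexpression and IgG on untreated cells, so antibody and treatment cannot be told apart. The peak list belongs to the LDB1 library, and with 1 library per group no test between groups was possible. The list gave a position and a length for each peak without height, summit or read count, so depth is unknown, the midpoint stands for the summit, and every interval below covers counting error within this library only.

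LDB1 does not bind DNA itself. It joins LMO2 and a bHLH pair such as TAL1 with a partner to GATA factors, and the assembled complex is known to sit at enhancers of blood cells, where part of an E-box often lies a short fixed distance before a GATA motif. Most enhancers lie in introns or between genes, and an exon used as a regulatory element has to carry its protein code or its transcript signals in the same bases.

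The sequences shown here held this composite, a CTG followed after 7 or 8 bases by AGATAA or AGATAG, or by TGATAA or TGATAG. They are shown because they are what the LDB1 complex is known to recognise. Each run is 30 bases of hg38 read 5′ to 3′ on the strand of the motif, with the CTG and the GATA hexamer in capitals. The first 3 are all the coding members with a composite inside the central 200 bp, and in each the GATA hexamer lay in coding sequence. At KDF1 and OR52A5 every base from the CTG to the hexamer was coding, while the BMX element crossed the start of the exon, with its CTG and spacer in the intron and 6 of its 17 bases, the hexamer, in the exon. The others come from a retained-intron transcript of TF and from 3′ untranslated sequence of CCR7 and S1PR2, and were chosen after their values were seen.
KDF1, coding exon 2 of 4, chr1:26952279-26952308, minus strand: ctatgtCTGgagacataTGATAAaccacct
BMX, intron and start of coding exon 5 of 19, chrX:15516095-15516124, plus strand: tcctgtCTGctcctcagAGATAAggggtaa
OR52A5, coding exon 2 of 2, chr11:5131947-5131976, plus strand: gggcagCTGaaagacagTGATAAaaatttg
TF, noncoding exon, chr3:133753931-133753960, minus strand: agcctgCTGtgtttctcTGATAAgcatatg
CCR7, 3′ untranslated, chr17:40554293-40554322, plus strand: actatctCTGgtcttggAGATAAggcctgg
S1PR2, 3′ untranslated, chr19:10223680-10223709, minus strand: tcacacCTGgaaaggccAGATAAggcactg

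Exons held LDB1 peaks more densely than introns did. Beyond 3000 bp of a TSS, 4.51 exonic midpoints (4.003 to 5.05) lay on each Mb of exon, against 3.13 (3.04 to 3.23) per Mb of intron and 2.67 (2.57 to 2.77) per Mb of intergenic sequence. The ratio of exons to introns was 1.44 (1.27 to 1.62). Exonic peaks also lay nearer to a TSS than intronic ones, at medians of 6317 and 10525.5 bp. The part of this distance in the ratio was not tested. The 3 classes lay close together, at 4.27 per Mb (3.31 to 5.43) in coding exons, 4.68 (3.92 to 5.54) in untranslated exons and 4.44 (3.57 to 5.45) in noncoding exons, and each interval contained the other 2 values. All 3 stayed below the 7.64 per Mb within 3000 bp of a TSS. The value for coding exons was higher among the shortest peaks than among the longest, a difference that was not tested. Among the 5523 longest peaks of the list, the density of coding exons was 0.926 times that of introns (0.579 to 1.41, 22 peaks), and among the 5523 shortest it was 1.77 times (1.29 to 2.38, 45 peaks), with intervals that overlapped at their ends. Untranslated and noncoding exons had ratios of 1.45 (1.11 to 1.87) and 1.51 (1.11 to 2.02) among the longest peaks and of 1.53 (1.19 to 1.94) and 1.33 (0.960 to 1.79) among the shortest.

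**Figure D1:**
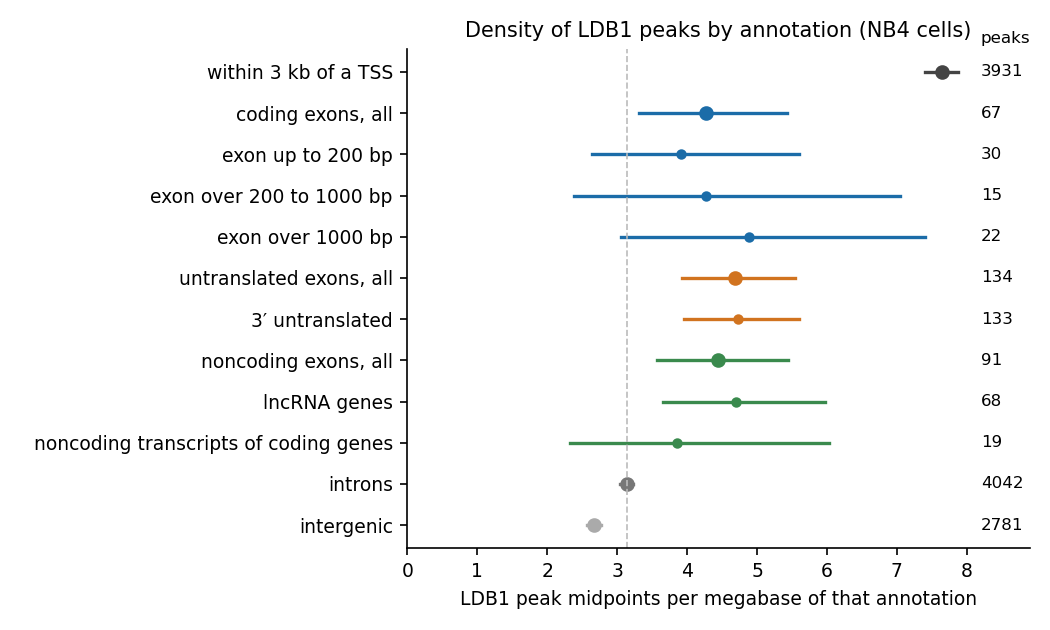
LDB1 peak midpoints per megabase (x axis) for each annotation class, with exact 95% Poisson intervals as lines and the number of peaks at the right; the dashed line marks introns at 3.13 per Mb. The 3 exon classes sit between introns and the sequence within 3 kb of a TSS and overlap each other.

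Within the classes the intervals of the density overlapped. Coding bases in exons of up to 200 bp had 3.92 peaks per Mb (2.64 to 5.59), those in exons over 200 and up to 1000 bp had 4.27 (2.39 to 7.04) and those in exons over 1000 bp had 4.88 (3.06 to 7.40). Of the 134 untranslated members, 133 lay on the 3′ side, at 4.73 per Mb (3.96 to 5.60). The only 5′ untranslated member was a peak of 847 bp over a 117 bp exon of XXYLT1, a xylosyltransferase that acts on Notch repeats, and the TSS limit left just 0.483 Mb of 5′ untranslated sequence to search. Among noncoding members, 68 of 91 (74.7%) lay in exons of lncRNA genes, at 4.71 per Mb (3.65 to 5.97), 19 in noncoding transcripts of protein-coding genes and 4 in pseudogenes. Of those 19, 13 lay in transcripts with a retained intron, which keep sequence that other transcripts splice out. With Ensembl canonical transcripts only, the noncoding class held 47 peaks, while 63 of 67 coding members (94.0%) had a canonical host transcript.

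Most exonic peaks lay in last exons. The host exon was the last of its transcript for 227 of 292 peaks (77.7%), internal for 62 and the first for 3. The share of exon bases in last exons was not counted, so a preference for them cannot be read from this. Of the 64.8 Mb of exon beyond 3000 bp of a TSS, 28.1 Mb was 3′ untranslated. Coding members were the exception, with 44 of 67 (65.7%) in internal exons and 23 in last exons. Their host exons were short, with a median of 238 bp (164 to 526) against 3791.5 bp (3261 to 4696) for untranslated members and 1187 bp (806 to 1630) for noncoding ones. Of the coding peaks, 32 of 67 (47.8%, 36.3 to 59.5%) covered their whole exon and ran past both edges, 18 crossed 1 edge and 17 lay wholly inside. Of the untranslated peaks, 111 of 134 (82.8%) lay wholly inside the exon, as did 56 of 91 (61.5%) noncoding peaks. A coding peak had a median of 57.2% of its bases in exons, and the median was 100% in both other classes.

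**Figure D2:**
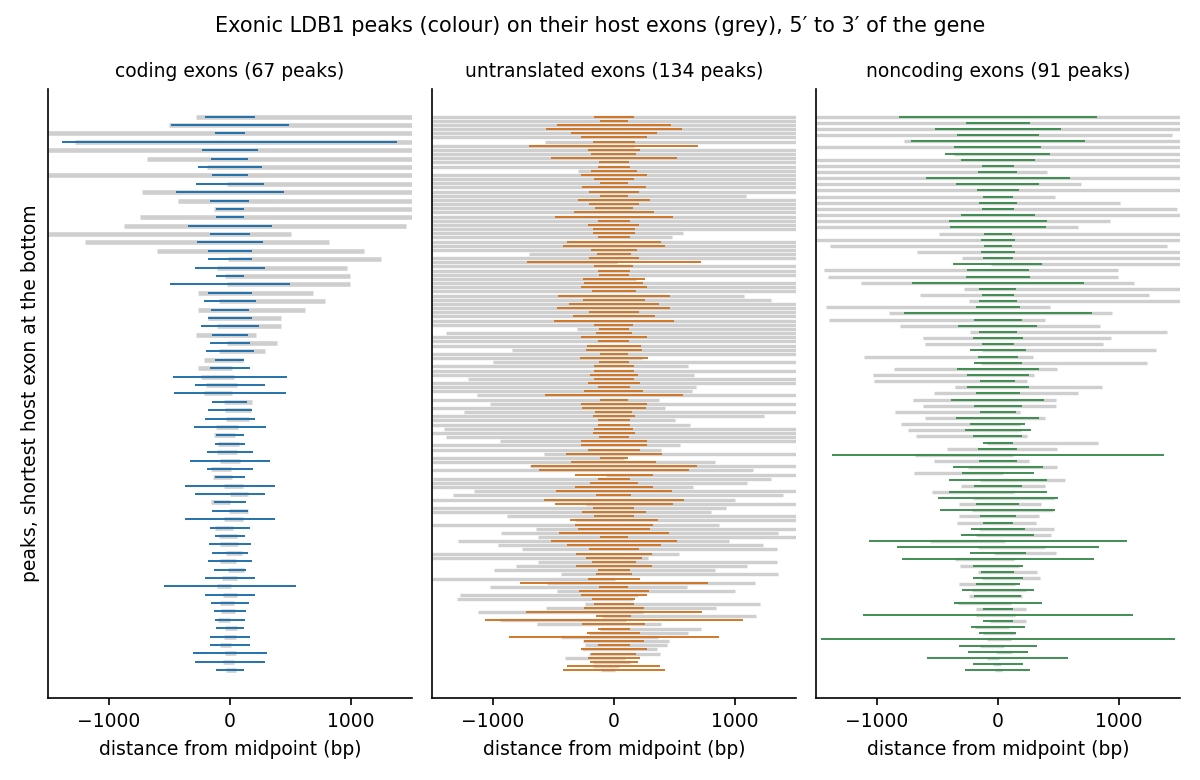
Each exonic peak (coloured line) on its host exon (grey bar), aligned at the peak midpoint and drawn 5′ to 3′ of the gene, sorted by exon length, with longer spans cut at the panel edges. In the coding panel the lower rows show most of the 32 peaks reaching over both edges of short exons, and in the untranslated panel most peaks lie inside long exons.

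The 3′ untranslated peaks in last exons were spread along the untranslated stretch of that exon rather than gathered at its start or at the transcript end. This stretch was counted from the stop codon or, where the stop codon lay in an earlier exon, from the start of the last exon. For these 130 peaks, the midpoint was a median of 1562 bp (1061 to 2045) after the start of the stretch. The median distance to the transcript end was 1637.5 bp (1239 to 2146). Cutting each untranslated stretch into 4 equal parts, 29, 42, 31 and 28 midpoints fell in the successive parts from its start. Within 500 bp of the transcript end lay 23 of 130 (17.7%, 12.1 to 25.2%). The share of 3′ untranslated bases within that distance was not counted.

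Peak lengths overlapped broadly between classes. The median was 366 bp (327 to 418) for coding members, 427.5 bp (397 to 507) for untranslated members, 459 bp (397 to 590) for noncoding members and 442 bp (434 to 449) for the 6823 intronic and intergenic peaks beyond 3000 bp of a TSS. The coding interval was the one that did not reach the intronic and intergenic median. The shortest exonic peak measured 230 bp and the longest 2922 bp.

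**Figure D3:**
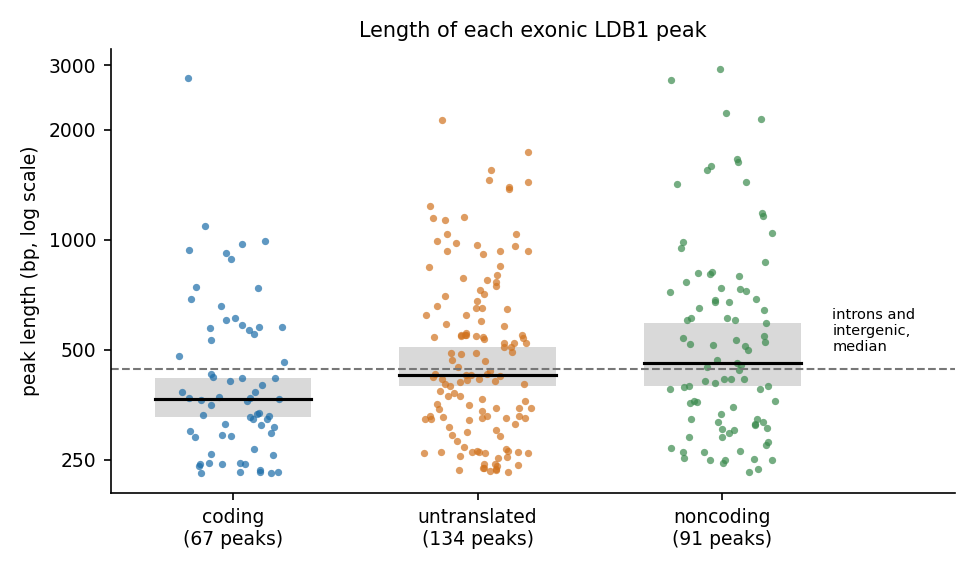
Length of every exonic peak in bp (y axis, log scale) by exon class, 1 point a peak, with the class median as a black line, its 95% interval in grey and the median of intronic and intergenic peaks dashed. Coding peaks have the lowest median (366 bp) and 1 peak far above the rest, in C1orf116 at 2764 bp.

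The longest coding peaks lay in genes of varied function. The longest, 2764 bp at chr1:207020821-207023584, covered 2660 bp of the last exon (4 of 4) of C1orf116, a gene described as androgen-regulated, and a second exonic peak of 322 bp lay in the 3′ untranslated part of the same exon. Next came a peak of 1090 bp over exon 17 of 41 of ARHGEF11 and one of 989 bp at the last exon of TDRKH, a Tudor-domain protein of the piRNA pathway. TANC2, a synaptic scaffold, had 973 bp wholly inside its last coding exon of 7705 bp. A peak of 939 bp covered a 274 bp exon of ADGRE5 (CD97), an adhesion receptor of leukocytes, in a transcript that is not the canonical one.

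Among untranslated members the longest lay in ARMC6 (2128 bp), followed by ANXA6 (1733 bp), an annexin that binds membranes with calcium, FADS2 (1553 bp), a fatty acid desaturase, MRC2 (1452 bp), a collagen-binding endocytic receptor, and TMEM120B (1435 bp). All 5 lay in last exons, and those of ARMC6 and ANXA6 covered the whole exon. The longest noncoding members lay in the lncRNA ENSG00000259989 (2922 bp), the Fc receptor copy FCGR1BP (2738 bp), TXNRD2 (2224 bp), which encodes a mitochondrial thioredoxin reductase, SLC37A1 (2134 bp) and the lncRNA ENSG00000290094 (1660 bp). Each of these 5 covered its exon completely, and the central 31 bases of the FCGR1BP peak occurred 3 times in hg38.

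Repeated sequence was not found at the centre of coding members. A second copy of the central 31 bases was present in hg38 for 0 of 67, which allows a share of up to 4.48%, compared with 794 of 6823 intronic and intergenic peaks (11.6%, 10.9 to 12.4%). The shares of 8.21% (4.65 to 14.1%) for untranslated and 14.3% (8.54 to 22.9%) for noncoding members had intervals that contained 11.6%. In 5 members the central sequence had over 100 copies, and these were named after their values were seen. They lay in 3′ untranslated sequence of F11R (33328 copies), SLC35E3 (3954 copies), TRIM56 (1456 copies) and ACOT11 (401 copies) and in the lncRNA ENSG00000288880 (392 copies). All were short, between 236 and 326 bp. Whether reads that align to many places were kept is not given in the sources used here, and their part in these peaks was not tested.

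Motifs were counted in the central 200 bp of each peak on both strands. The composite contains a GATA hexamer, and its CTG can end the E-box CAGCTG, as it does at OR52A5. A GATA hexamer was found within the central 200 bp of 127 of 292 exonic peaks (43.5%, 37.9 to 49.2%). It was found in 21 of 67 coding members (31.3%, 21.5 to 43.2%), 58 of 134 untranslated members (43.3%, 35.2 to 51.7%) and 48 of 91 noncoding members (52.7%, 42.6 to 62.7%). In windows of the same size 1000 bp to each side, the shares were 30.6%, 24.3% and 24.7%. The rise over the flanks was therefore 19.03 points (9.27 to 28.7) for untranslated and 28.0 points (15.8 to 39.5) for noncoding members, but 0.746 points (-12.1 to 14.6) for coding members. Set against intronic and intergenic peaks, where the share was 50.1%, coding members were lower by 18.8 points (interval of the difference -28.7 to -6.86), while the intervals for the other classes included 0. Among members longer than the median of all peaks, 6 of 22 coding (27.3%, 13.2 to 48.2%), 33 of 63 untranslated (52.4%, 40.3 to 64.2%) and 29 of 47 noncoding members (61.7%, 47.4 to 74.2%) had a hexamer, against 56.7% of intronic and intergenic peaks. Among members up to that length, the shares were 15 of 45 coding (33.3%, 21.4 to 47.9%), 25 of 71 untranslated (35.2%, 25.1 to 46.8%) and 19 of 44 noncoding (43.2%, 29.7 to 57.8%), against 43.96%, and all 3 intervals overlapped.

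**Figure D4:**
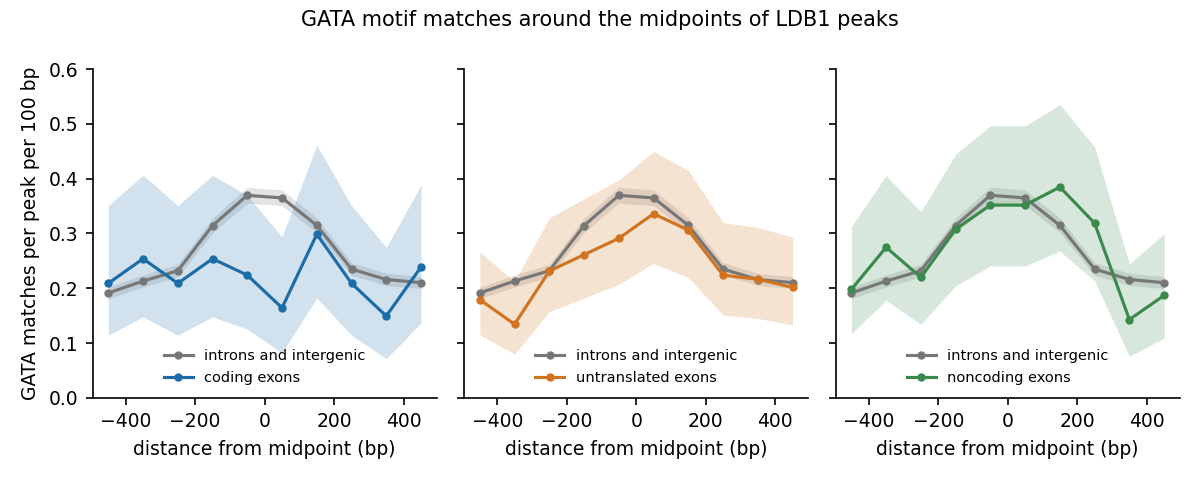
GATA hexamer matches per peak in steps of 100 bp around the midpoint (x axis, bp) for each exon class in colour and for intronic and intergenic peaks in grey, with exact 95% Poisson bands. Noncoding and untranslated peaks rise towards the midpoint as the grey line does, and the coding line stays flat, at 0.224 and 0.164 in the 2 central steps against 0.369 and 0.365.

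The composite was present in the central 200 bp of 3 of 67 coding members (4.48%, 1.53 to 12.4%), 11 of 134 untranslated members (8.21%, 4.65 to 14.1%) and 13 of 91 noncoding members (14.3%, 8.54 to 22.9%), against 2.99%, 0.746% and 0.549% of the flanking windows. The rise over the flanks was 7.46 points (3.41 to 13.4) for untranslated and 13.7 points (7.47 to 22.4) for noncoding members. For coding members it was 1.49 points, with an interval that included 0 (-3.83 to 9.58). Intronic and intergenic peaks had a composite in 11.8% (11.1 to 12.6%). The difference from these was -7.36 points (-10.4 to 0.551) for coding, -3.63 (-7.28 to 2.31) for untranslated and 2.44 (-3.35 to 11.1) for noncoding members, and all 3 intervals included 0. The 27 members with a composite held 28 in all, of which 18 had a spacer of 8 bases and 10 a spacer of 7, and 11 lay on the strand of the host gene.

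These shares depend on how often each class of sequence spells the motif, so matches inside peaks were set against matches outside peaks in bases of the same class, a composite being placed by its hexamer. On this measure the intervals of all classes overlapped for the composite. Composites were 5.71 times (3.32 to 9.18) as dense inside peaks as outside in coding exons, 4.81 times (3.10 to 7.11) in untranslated exons and 5.83 times (3.76 to 8.64) in noncoding exons. The same ratio was 5.92 (5.57 to 6.29) in introns and 6.41 (5.95 to 6.89) in intergenic sequence. The share of all composites beyond 3000 bp of a TSS that lay under a peak was 1.39% of 1220 (0.872 to 2.22%) in coding, 1.21% of 2064 (0.822 to 1.78%) in untranslated and 1.52% of 1643 (1.033 to 2.24%) in noncoding exons, and 1.027% (0.967 to 1.09%) in introns.

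The GATA hexamer alone was far less tied to peaks. Its ratio inside to outside was 1.02 (0.783 to 1.29) in coding, 1.14 (0.985 to 1.32) in untranslated and 1.33 (1.13 to 1.55) in noncoding exons, against 1.13 (1.101 to 1.16) in introns. In coding exons 65 of 25943 hexamers lay under a peak. Each of the 4 hexamers ends in TAA or TAG, a stop codon in 1 reading frame of the coding strand, and the strands were therefore counted apart. In the windows of coding members 11 of 19 hexamers in coding bases (57.9%, 36.3 to 76.9%) lay on the coding strand, against 54.8% (54.2 to 55.4%) of those outside peaks. Of the 65 coding hexamers under any peak, 32 (49.2%, 37.5 to 61.1%) lay on the coding strand, and both intervals contained 54.8%. Inside the window, 21 of the 26 hexamers of coding members (80.8%) lay in exon bases rather than intron, beside 77.7% of the window bases.

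**Figure D5:**
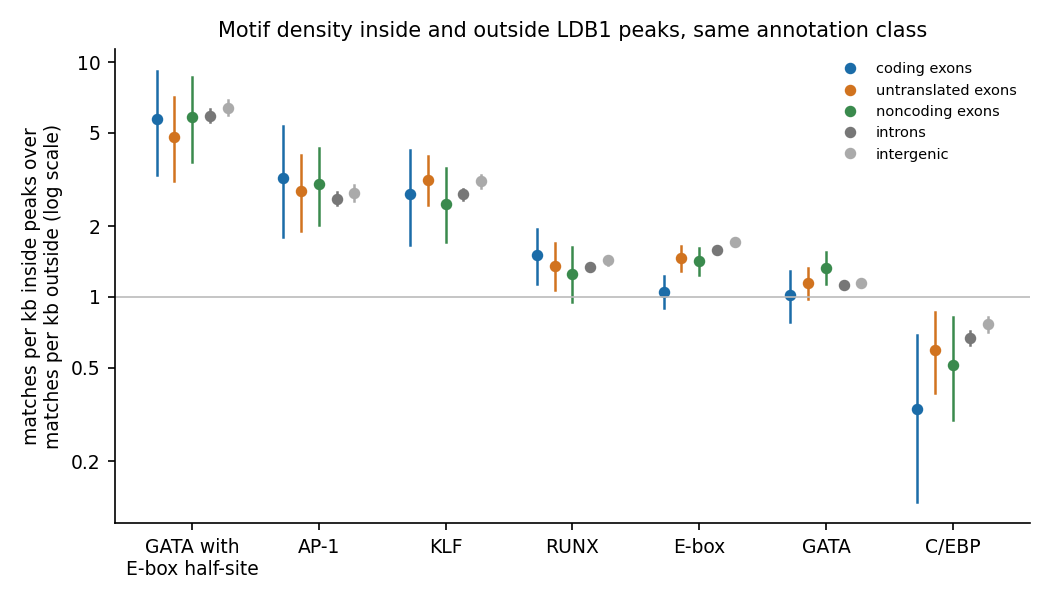
Motif matches per kb inside LDB1 peaks divided by matches per kb outside peaks (y axis, log scale, 1 means no difference) in bases of the same annotation class beyond 3 kb of a TSS, with exact 95% intervals. The composite (GATA with E-box half-site on the axis) stands highest of the 7 motifs drawn in all 5 classes, between 4.81 and 6.41, and the E-box and GATA of coding exons sit at 1.05 and 1.02.

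The 17 composites under a peak with their hexamer in coding bases belonged to 16 peaks, and only 7 of these peaks had their midpoint in coding sequence. They lay at TDRKH, KDF1, CDCP1, CRYBG1, LRGUK, OR52A5 and BMX, with the composite within 100 bp of the midpoint at KDF1, CRYBG1, OR52A5 and BMX. The CRYBG1 element reached past the central 200 bp and is not among the 3 counted above. The other 10 lay in 9 peaks whose midpoint was intronic and which overlapped a coding exon. One of these was at MYB, whose product is a transcription factor of blood progenitors, where a 1059 bp peak at chr6:135191724-135192782 held the composite 77 bp from its midpoint. Every base of the element was coding in 14 of the 17, in 13 peaks, 5 of them with a coding midpoint. The elements of TDRKH, BMX and MYB crossed an exon edge, with 7, 6 and 9 of 17 bases coding.

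The 3 coding members with a central composite differed in setting. The KDF1 peak (chr1:26952020-26952593, 574 bp) covered 393 bp of exon 2 of 4 in a gene named for keratinocyte differentiation, with GC content of 63.0% in its central 200 bp. The BMX peak (chrX:15515964-15516381, 418 bp) ran over the whole 120 bp exon 5 of 19 of this Tec-family kinase, and BMX is also on the study's list of genes bound by LDB1 and changed on its knockdown. The OR52A5 peak (chr11:5131861-5132168, 308 bp) lay wholly inside exon 2 of 2 of an olfactory receptor gene, in the receptor cluster that surrounds the β-globin genes. Its GC content was 42.0% in the central 200 bp, and the lowest among the coding members was 41.5%.

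The E-box, bound by bHLH proteins, was the commonest of the 9 motifs in coding members. It was also the commonest in untranslated, noncoding, intronic and intergenic peaks. CAGNTG, with any base at N, was in the central 200 bp of 45 of 67 coding members (67.2%, 55.3 to 77.2%), 23.1 points (8.53 to 36.1) above their flanks and 15.1 points (3.18 to 25.3) above intronic and intergenic peaks. Coding exons outside peaks held 3.90 E-boxes per kb, against 2.34 in introns. The ratio of the density inside peaks to that outside was 1.05 (0.896 to 1.23) in coding exons, against 1.46 (1.29 to 1.64) in untranslated and 1.42 (1.24 to 1.62) in noncoding exons and 1.58 (1.54 to 1.61) in introns. Split by spelling, after the first result was seen, CAGCTG had the highest ratio in every class, at 1.21 (0.876 to 1.63) in coding exons, 2.30 (1.80 to 2.89) in untranslated exons, 2.04 (1.54 to 2.66) in noncoding exons and 2.56 (2.44 to 2.67) in introns. For both the E-box and CAGCTG, the ratio was lower in coding exons than in introns, with intervals that did not meet.

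The KLF motif, in the forms CCACACCC, CCACGCCC, CCCCACCC and CCCCGCCC, was in 22.4% (14.1 to 33.7%) of coding members, 16.4% (11.1 to 23.6%) of untranslated and 7.69% (3.78 to 15.04%) of noncoding members, and in 12.2% of intronic and intergenic peaks. The coding share lay 15.7 points (5.66 to 27.4) above the flanks, and the ratio inside to outside peaks was 2.74 (1.67 to 4.24) in coding exons, 3.15 (2.46 to 3.97) in untranslated and 2.50 (1.71 to 3.53) in noncoding exons. It was 2.73 (2.60 to 2.87) in introns and 3.10 (2.92 to 3.29) in intergenic sequence. Matches for AP-1 (TGACTCA or TGAGTCA) were 3.22 times (1.80 to 5.33), 2.82 times (1.91 to 4.005) and 3.02 times (2.04 to 4.32) as dense inside peaks in these 3 classes. In the central 200 bp, AP-1 was found in 2 of 67 coding, 12 of 134 untranslated and 10 of 91 noncoding members. RUNX matches (TGCGGT or TGTGGT) were in 19.2% (15.1 to 24.1%) of exonic peaks and 20.8% of intronic and intergenic peaks. The exonic share lay 3.77 points from the flanks (-1.41 to 9.37). The RUNX ratio inside to outside was 1.51 (1.14 to 1.95) in coding, 1.36 (1.08 to 1.70) in untranslated and 1.26 (0.951 to 1.63) in noncoding exons. In introns it was 1.35 (1.30 to 1.40). The ETS motif (CCGGAAA or CCGGAAG) was found in 4 of 67 coding members, 4 of 134 untranslated and 1 of 91 noncoding members. Over all exonic peaks the ETS share was 3.08% (1.63 to 5.75%), against 1.80% of intronic and intergenic peaks. The ETS ratio was 2.04 (1.14 to 3.37) in coding, 1.43 (0.462 to 3.34) in untranslated and 0.979 (0.202 to 2.87) in noncoding exons. Introns had 2.70 (2.35 to 3.09). The C/EBP sequence TTGCNNAA, bound by a family that drives granulocyte genes, was rarer inside peaks than outside, at 0.335 times (0.135 to 0.690) in coding, 0.594 times (0.391 to 0.865) in untranslated and 0.513 times (0.299 to 0.822) in noncoding exons. It was rarer inside peaks also in introns, at 0.668 times (0.626 to 0.713), and in intergenic sequence, at 0.766 times (0.711 to 0.824). No exonic peak had the CTCF motif in its central 200 bp, which allows a share of up to 1.027%. Only 0.249% of intronic and intergenic peaks and 0.308% of all peaks had it, so this count cannot show a lower share. In 41 of 292 exonic peaks (14.04%) none of the 9 motifs was found, as in 13.4% of intronic and intergenic peaks.

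Base composition differed with these motifs. The central 200 bp had a mean GC content of 56.2% ± 7.37 (SD over 67 peaks) in coding, 52.2% ± 7.70 (SD over 134 peaks) in untranslated and 51.7% ± 6.36 (SD over 91 peaks) in noncoding members. Their flanks had 47.3%, 47.3% and 47.1%, and intronic and intergenic peaks 50.9% ± 6.52 (SD over 6823 peaks). The part of GC content in the densities and motif shares was not tested.

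The share of exonic peaks with a near neighbour had an interval that contained the share in other peaks. Another peak lay within 10 kb of 155 of 292 (53.1%, 47.4 to 58.7%), and of 51.3% (50.1 to 52.5%) of intronic and intergenic peaks. They lay nearer to a TSS within the limit the rule allows, at a median of 6317 bp (5741 to 6986) against 11435 bp (11181 to 11757). For 125 of 292 members (42.8%) the host gene held no other peak. At the 3000 bp limit the nearest member was a 369 bp peak in the last coding exon of a TULP3 transcript, 3001 bp from a TSS, followed by ENSG00000283959 at 3015 bp, AKT2 at 3029 bp, TFPI at 3048 bp and MYC at 3078 bp. Just outside it were exonic midpoints in ENSG00000270228 at 2992 bp, LINC01132 at 2983 bp and WDFY2 at 2972 bp.

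The 292 peaks lay in exons of 266 host genes, 198 of them protein-coding, and 23 genes held more than 1. C6orf132 and SV2C, a synaptic vesicle protein, had 3 untranslated members each, and MORN3 had 1 coding and 2 untranslated members. TF, which encodes the iron carrier transferrin, had a 1588 bp peak over the retained-intron exon shown above with its composite 9 bp from the midpoint. A second TF peak of 368 bp covered coding exon 5 of 17, and 516 bp separated the pair. EFCAB12 likewise had a coding member (577 bp) and a noncoding member (1185 bp), 706 bp apart.

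The other genes with 2 members were C1orf116, CMTM4, CRYBG1, DYRK3, FRRS1L, FZD5, HPSE2, PCSK5, RBM23, REEP1, SIRT3, SLC35E3, TDRKH and TNRC6B among protein-coding genes and ENSG00000285108, LINC00964, LINC01485 and PPM1F-AS1 among lncRNAs. Both PCSK5 peaks (557 and 252 bp) held a composite, as did 1 of the 2 members in each of CMTM4, HPSE2 and RBM23. FZD5, a Wnt receptor, and SIRT3, a mitochondrial deacetylase, had no GATA hexamer in either window. Members of 1 gene share a locus and are not independent. By chromosome, exonic peaks made up between 0.510% (chromosome 18, 1 member) and 4.67% (chromosome 21, 5 members) of the peaks.

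Of 152 matched genes on 12 lists of LDB1 partners, blood lineages and cell functions, 6 held an exonic peak (3.95%, 1.82 to 8.34%), beside 0.992% of the 19962 protein-coding genes. Among genes with any peak the shares were 6 of 80 (7.5%, 3.48 to 15.4%) for the lists and 5.98% for all protein-coding genes, which lay inside that interval. The 6 hosts were AZU1, a granule protein of neutrophils and the only hit among 10 promyelocyte and granulocyte genes, MYC and ZFPM1 (FOG-1, a cofactor of GATA1) among 24 hematopoietic transcription factors, TGM2 among 8 nuclear receptor and retinoid genes, and MYH10 and PLEC among 14 genes of cytoskeleton and adhesion. The AZU1 peak (397 bp) covered its last exon with a GC content of 73.0% and no GATA hexamer. Those of MYC (522 bp) and MYH10 (685 bp) had one, and those of ZFPM1 (427 bp), TGM2 (235 bp) and PLEC (610 bp) had none. The TGM2 midpoint also lay in an exon of RPRD1B. No exonic peak fell in the 14 genes of the LDB1 complex, 11 of which held a peak elsewhere, nor in the 20 genes of erythroid membrane and metabolism, 19 of which did, nor in the other lists (erythroid, megakaryocyte and platelet, mast cell and basophil, chromatin regulators, B and T cell, keratinocyte and muscle). These lists are short, and 5.98% of all protein-coding genes with a peak were hosts, so counts of 0 among 11 and 19 genes cannot show a lower share.

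Gene lists drawn up by the study were compared as well. None of the 19 candidate targets had an exonic peak, while 13 had a peak somewhere in the gene. Of 53 self-renewal genes, 28 of which had any peak, 1 did, STAT3, a cytokine-activated transcription factor, with 651 bp in the 3′ untranslated part of its last exon. Beside the 5.98% of all protein-coding genes with a peak that were hosts, 0 of 13 and 1 of 28 cannot show a different share. For genes bound by LDB1 in ChIP-Seq and changed on its knockdown, 1079 could be matched and 39 of them (3.61%, 2.66 to 4.90%) held an exonic peak, against 0.992% (0.864 to 1.14%) of all protein-coding genes. That list was chosen for LDB1 binding in the same cell line and is not independent of the peaks. The 39 include lncRNA genes. Counting protein-coding genes of the list only, 36 of 1006 (3.58%, 2.60 to 4.91%) held one, and among those with any peak 36 of 616 (5.84%, 4.25 to 7.98%), beside 198 of 3309 (5.98%, 5.23 to 6.84%) of all protein-coding genes.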

How the data were processed

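The authors performed CUT&Tag on NB4 cells with a commercial kit. Per the methods and the submitters' processing notes, reads were aligned to hg38 with Bowtie2 2.4.4 and peaks were found with MACS3 3.0 in paired-end mode at a q-value limit of 0.01. Whether the IgG library served as control, and whether duplicates or problem regions were removed, is not given in the sources used here. Each deposited LDB1 peak had a start, an end and a length in bp. The IgG library was not analysed here.

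The members and gene lists were chosen with earlier results of these data known. Each midpoint, (start + end)/2, was placed against GENCODE release 44, in the order coding, untranslated, noncoding. Densities used the bases of each class beyond 3000 bp of any TSS. Intervals (95%) were Wilson for shares, exact Poisson for densities, exact conditional for ratios, Newcombe for differences and order statistics for medians. The limit for a count of 0 was 3 counts of the total. Motifs (9, including CTCF) were consensus sequences, and flanks were windows of 200 bp centred 1000 bp to each side. Sequences came from hg38, and 1 composite sequence is not reported here. Genes were named by a rule: the 5 longest peaks of each class, members with a composite in a coding exon, members in listed genes, genes with 2 or more members, and those nearest the TSS limit. Alternatives were other TSS limits and sets, transcript sets, windows, peaks with a unique centre and the 5523 longest peaks. The counting was tested on simulated data. The tools were SciPy 1.17.1, numba 0.67.0, matplotlib 3.10.9, pandas 2.3.3 and numpy 2.4.6 under Python 3.11.15.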

Additional observations from a re-analysis of the deposited data

How the results depend on the processing

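Of 131 values under an alternative, 77 stayed within the 95% interval of the reported value, or for counts within 1.5 times of it, 53 moved further and 1 reversed. The reversed value was the density of coding exons over introns, 0.926 among the 5523 longest peaks. Those peaks held 132 exonic peaks (22 coding, 63 untranslated, 47 noncoding). In them the GATA share was 51.5% for exonic and 52.4% for untranslated members, the composite share 13.6% for exonic and 23.4% for noncoding members, the share of GATA hexamers under a peak 0.170%, 0.199% and 0.242% in coding, untranslated and noncoding exons, and that of untranslated composites 0.775%. Repeated centres fell to 3.79% of exonic, 1.59% of untranslated and 8.51% of noncoding members, and 46.8% of noncoding members lay wholly inside the exon. The values on repeats and exon geometry in the longest peaks were chosen after seeing the data.

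With a TSS limit of 1000 bp there were 532 exonic peaks, 124 of them coding and 212 noncoding. With a limit of 5000 bp there were 88 untranslated and 59 noncoding members. With TSS of protein-coding genes only there were 576 exonic peaks, 344 of them noncoding, and the noncoding density was 2.23 times that of introns. Canonical transcripts only gave 47 noncoding members, a composite share of 8.51% in them and 0.436% of noncoding hexamers under a peak.

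In a window of 100 bp the GATA share was 26.7% for exonic, 17.9% for coding, 26.9% for untranslated and 33.0% for noncoding members, and the composite share 4.11%, 1.49%, 4.48% and 5.49%. Exon bases held 92.3% of coding and 100% of untranslated hexamers there. Over whole peaks the GATA shares were 66.4%, 55.2%, 63.4% and 79.1% and the composite shares 18.5%, 16.4%, 16.4% and 23.1%. Counting only matches within 100 bp of a midpoint, 0.123%, 0.131% and 0.144% of hexamers and 0.738%, 0.678% and 0.913% of composites were under a peak in coding, untranslated and noncoding exons. With any peak base in an exon, 351 protein-coding genes and 76 genes of the ChIP-Seq and knockdown list were hosts. Alternatives that need a q-value or fold enrichment were not run, since the columns hold none. Depth is unknown, so no limit from it can be given. No paired analysis was possible because no group had a replicate and no value came from a test.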
